A study of Mus musculus with 10 samples.

Results

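The Dppa (developmental pluripotency associated) genes examined here were Dppa2, Dppa3, Dppa4 and Dppa5a, 4 of 18193 genes named on the array. They were taken by gene symbol from the platform annotation, which gives them 5 of 45101 probe sets, 1 each for Dppa3 (1424295_at), Dppa4 (1429597_at) and Dppa5a (1416552_at) and 2 for Dppa2 (1453223_s_at and 1429654_at). All 5 probe sets passed the filter on low values.

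Their transcripts were read in 5 sorted mouse cell populations, each hybridised to 2 Affymetrix Mouse Genome 430 2.0 arrays. The induced primordial germ cells (iPGCs) were Oct4-gfp+/cKit bright cells of an Oct4-Gfp reporter line of mixed background and SSEA1+/cKit bright cells of the V6.5 line (129xBL6 F1), both from hanging-drop embryoid bodies (EBs) at day 6 of differentiation without leukemia inhibitory factor. The somatic cells were the Oct4-gfp-/cKit- and SSEA1-/cKit- cells of the same stage in the Oct4-Gfp and the V6.5 line. The embryonic stem cells (ESCs) were undifferentiated SSEA1+/cKit+ V6.5 cells at day 0, kept on mouse embryonic fibroblast feeders. No ESCs of the Oct4-Gfp line were profiled, so that the line and the sort marker cannot be told apart in any comparison of Oct4-Gfp iPGCs with ESCs. Each line was 1 ESC line, and nothing in the labels says that the 2 arrays of a population came from separate cultures, so that p-values measure the spread between these arrays, which may be technical.

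The proteins encoded by these genes do different jobs. Dppa2 and Dppa4 are DNA-binding SAP-domain proteins that form a heterodimer on chromatin, keep developmental promoters poised in pluripotent cells and can switch on genes of the cleavage-stage embryo. Dppa3, also called Stella or PGC7, is an early marker of primordial germ cells (PGCs) that shields the maternal genome of the zygote from demethylation and, in oocytes, restrains the methylation cofactor Uhrf1. Dppa5a, also called Esg1, is an RNA-binding KH-domain protein of ESCs, early embryos and PGCs.

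In the GRCm38.p6 annotation of RefSeq, Dppa4 (chromosome 16, 48283735 to 48294292) and Dppa2 (chromosome 16, 48310274 to 48319513) are adjacent, with 16.0 kb between them. Dppa3 lies on chromosome 6 from 122626424 to 122630271 and Dppa5a on chromosome 9 from 78367052 to 78368199. The same annotation lists a Dppa3 pseudogene on chromosome X and the pseudogenes Dppa5b and Dppa5c on chromosome 9. How far transcripts of these copies bind the Dppa3 and Dppa5a probe sets was not tested. The 2 Dppa2 probe sets are no replicates of each other, and signal levels are not comparable between probe sets.

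The deposited values were MAS5 signal intensity on a linear scale, with a trimmed mean of 500 on each array. A background was taken on each array from 44 olfactory receptor probe sets, as the signal below which 95% of them fell, and ranged between 12.6 and 25.4. The 3′/5′ ratio of the Gapdh control probe sets, which reads RNA integrity and priming, was 1.51 to 2.37 in iPGCs, 1.65 to 2.05 in somatic cells and 1.28 to 1.30 in ESCs. MAS5 detection calls were not used here. Markers were checked in iPGCs against somatic cells, where 33.7% of all genes tested were higher and 29.8% lower. All 7 PGC markers tested (8 listed) passed as higher and all 9 mesoderm and somatic markers as lower. Kit, a PGC marker, and Pou5f1 (Oct4), a pluripotent cell marker, go with the sort markers cKit and Oct4-gfp, so their direction was set by the sort. Of 6 pluripotent cell markers, 5 passed as higher, though Sall4 only by 0.25 on the log2 scale, a call lost whenever an iPGC or ESC array was left out, and Lin28a passed as lower (-0.27, adjusted p = 0.0259), a call lost without Oct4-Gfp iPGC replicate 1 or 2 among others.

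All 4 genes gave high signal in iPGCs and in ESCs and low signal in somatic cells, on every array. Dppa2 (1453223_s_at) read 5724 and 5946 in Oct4-Gfp iPGCs and 4430 and 5501 in V6.5 iPGCs, against 84.7 and 106 in Oct4-Gfp somatic cells, 17.0 and 88.9 in V6.5 somatic cells, and 4050 and 3650 in V6.5 ESCs. The 4 iPGC arrays lay above both ESC arrays, and 1 V6.5 somatic array lay at its background. The other Dppa2 probe set (1429654_at) read 1165 and 1356 in Oct4-Gfp iPGCs and 777 and 862 in V6.5 iPGCs, against 1.52 and 10.4 in Oct4-Gfp somatic cells, 5.47 and 1.18 in V6.5 somatic cells, and 927 and 744 in V6.5 ESCs. All 4 somatic arrays were below background for this probe set, and the V6.5 iPGC and ESC arrays overlapped.

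Dppa4, the partner of Dppa2, read 4713 and 4902 in Oct4-Gfp iPGCs and 4253 and 4516 in V6.5 iPGCs, against 156 and 112 in Oct4-Gfp somatic cells, 123 and 156 in V6.5 somatic cells, and 3493 and 2800 in V6.5 ESCs. The 3 cell types did not overlap, and the somatic signal stayed above background on every array. Dppa3 read 6869 and 6927 in Oct4-Gfp iPGCs and 6825 and 6987 in V6.5 iPGCs, against 62.3 and 94.6 in Oct4-Gfp somatic cells, 52.3 and 121 in V6.5 somatic cells, and 3394 and 3947 in V6.5 ESCs. The 4 iPGC arrays of both lines were within a narrow range for Dppa3 (6902 ± 70.4, SD, n = 4), and both ESC arrays were well below them.

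Dppa5a was the member with the opposite order of iPGCs and ESCs in the deposited signals, though not after quantile normalization. It read 10052 and 10549 in Oct4-Gfp iPGCs and 10250 and 12130 in V6.5 iPGCs, against 591 and 660 in Oct4-Gfp somatic cells, 230 and 595 in V6.5 somatic cells, and 13418 and 14746 in V6.5 ESCs. Both ESC arrays lay above all 4 iPGC arrays, and the somatic signal was far above background on every array.

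**Figure D1:**
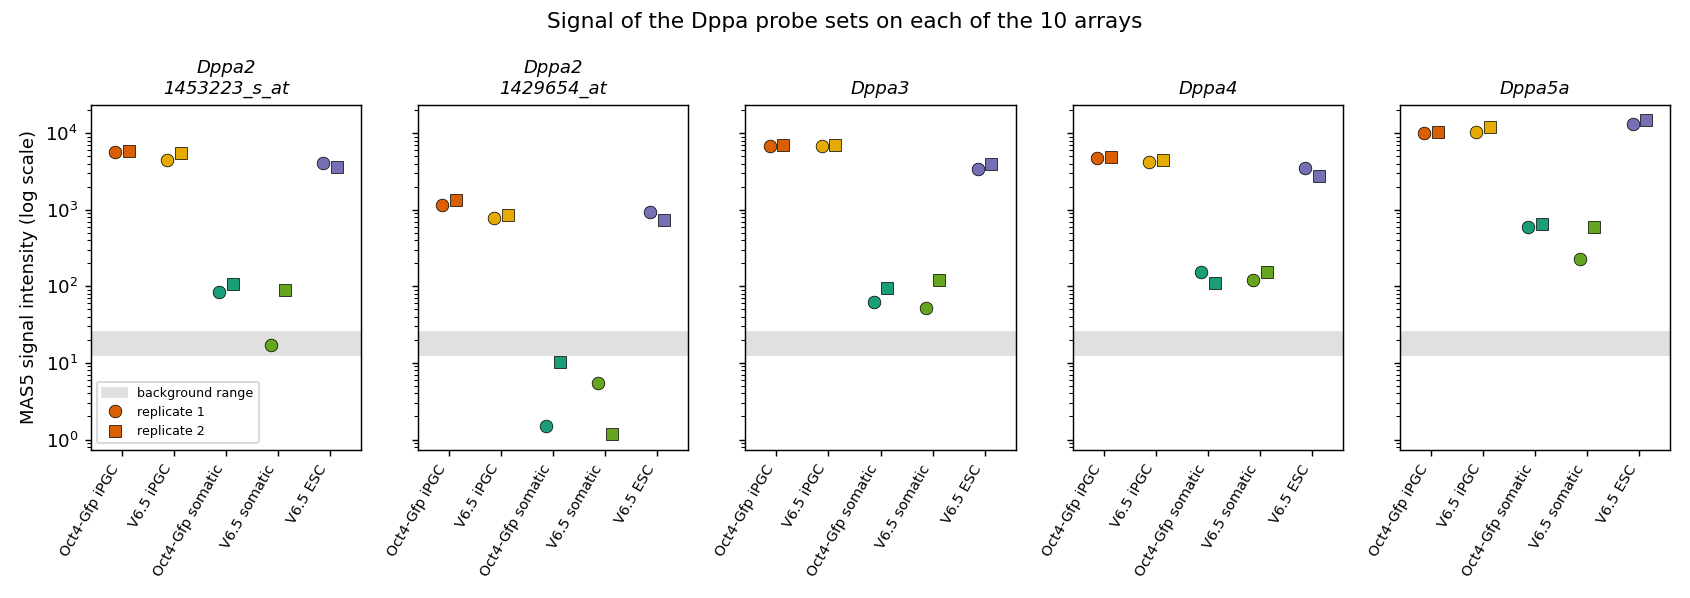
MAS5 signal intensity (log scale) of the 5 Dppa probe sets on each of the 10 arrays, by population; circles and squares are replicates 1 and 2, and the grey band spans the background of the arrays (12.6 to 25.4). Somatic arrays lie far below iPGC and ESC arrays in every panel, and fall below the band for Dppa2 1429654_at.

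The comparison of iPGCs with ESCs asks which genes differ once iPGCs have formed from pluripotent cells. Signals were compared as log2 of the signal plus 14.8, by a linear model over the 5 populations (limma), with p-values adjusted over 26368 probe sets and 0.05 as the threshold. Of the 4 members, 2 were higher in iPGCs and 0 lower, where 24.5% of 12207 genes tested were higher and 21.0% lower. The median log2 change of the members was 0.52, against 0.04 over all genes tested.

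Dppa3 was 1.88-fold higher in iPGCs (mean signal 6902 ± 70.4, n = 4) than in ESCs (3671 ± 392, n = 2), a log2 change of 0.91 ± 0.27 (SE, adjusted p = 0.0285). Dppa4 was 1.47-fold higher in iPGCs (4596 ± 278) than in ESCs (3147 ± 490), a log2 change of 0.55 ± 0.17 (adjusted p = 0.0309). Both calls were close to the threshold. The Dppa3 call was lost when any 1 of the 4 iPGC or 2 ESC arrays was left out, with adjusted p between 0.0507 and 0.148, and over all settings tried its adjusted p ranged between 0.00520 and 0.622. The Dppa4 call was lost without ESC replicate 2 (log2 change 0.39, adjusted p = 0.225), without V6.5 iPGC replicate 2 (0.0596) or without Oct4-Gfp iPGC replicate 1 (0.0601) or 2 (0.0688), in a range between 0.0100 and 0.225.

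Dppa2 averaged 5400 ± 672 in iPGCs and 3850 ± 283 in ESCs, and its log2 change of 0.48 ± 0.40 did not pass (adjusted p = 0.362, 95% interval -0.44 to 1.39). The error of this probe set includes the wide spread of the V6.5 somatic arrays. Without V6.5 somatic replicate 1 or replicate 2 the same log2 change had an adjusted p of 0.0437, the lowest of a range that reached 0.936. The other Dppa2 probe set had a log2 change of 0.28 ± 0.20 (adjusted p = 0.296), which turned to -0.02 on V6.5 arrays alone and to -0.42 with the Gapdh ratio as a covariate. Dppa5a averaged 10745 ± 945 in iPGCs and 14082 ± 939 in ESCs, and its log2 change of -0.39 ± 0.31 did not pass either (adjusted p = 0.344, 95% interval -1.11 to 0.33). After quantile normalization of the arrays the Dppa5a value was 0.02, the only 1 of 24 settings with a value above 0. Its direction thus did not hold under every scaling.

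**Figure D2:**
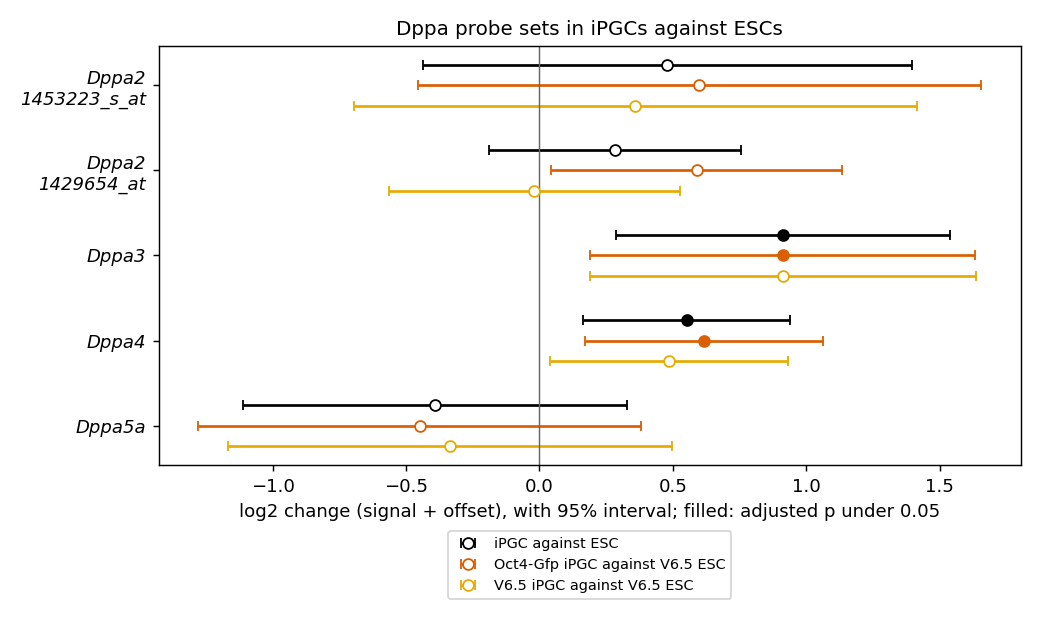
Log2 change of each Dppa probe set in iPGCs against ESCs, with both lines together (black) and for the Oct4-Gfp and V6.5 lines apart; points are estimates, bars 95% intervals, and filled points have an adjusted p under 0.05. Dppa3 and Dppa4 lie to the right of 0 in all 3 comparisons (0.91 and 0.55 with both lines together), and Dppa5a to the left (-0.39), but at 0.02 after quantile normalization.

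The 2 lines gave like estimates for Dppa3 and Dppa4. In Oct4-Gfp iPGCs against V6.5 ESCs, 2 of 4 members were higher and 0 lower (background 23.8% and 22.1% of genes). These were Dppa3, with a log2 change of 0.91 (adjusted p = 0.0472), and Dppa4, with 0.62 (adjusted p = 0.0342). In V6.5 iPGCs against V6.5 ESCs, the comparison within 1 line, limma called 0 of 4 members (background 17.3% higher and 12.9% lower). An unadjusted p under 0.05 was found for 2 of 4 members and for 5414 of 12207 genes tested, so that this count does not set the members apart. The log2 changes there were 0.91 for Dppa3 (adjusted p = 0.0636) and 0.48 for Dppa4 (adjusted p = 0.0976). Both were called with the limma-trend setting (adjusted p = 0.0188 and 0.0488), the only 1 of 22 settings to call Dppa4 there. The adjusted p of Dppa3 reached 0.246 in the limma settings tried. Both comparisons use the same 2 ESC arrays.

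The Gapdh 3′/5′ ratio moved with this comparison, since it was 1.51 or more on all 4 iPGC arrays and 1.30 or less on both ESC arrays. With that ratio as a covariate, the log2 change of Dppa3 in iPGCs against ESCs was 0.51 (adjusted p = 0.622) and that of Dppa4 0.82 (adjusted p = 0.222). Because the ratio itself separates these iPGC and ESC arrays, the covariate and the comparison cannot be told apart well. A call lost in this setting therefore does not show that the ratio accounts for a change. Markers of other cells also differed. Of 9 mesoderm and somatic markers tested (10 listed), 6 had a higher and 0 a lower signal in iPGCs than in ESCs, with a summed signal of 1615 to 2481 in iPGCs and 294 to 361 in ESCs. Of 6 fibroblast markers tested (8 listed), 1 was higher and 4 were lower, with a sum of 398 to 675 in iPGCs and 837 to 938 in ESCs, which had been kept on feeders. Without either ESC array 2 of the fibroblast markers were lower, and with the Gapdh ratio as a covariate 2 of the mesoderm and somatic markers were higher. The part of these cells in the Dppa values was not tested. In sorted bulk samples, fewer cells of a type and less RNA per cell cannot be told apart.

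Whether the members moved unequally was examined through the difference between the log2 changes of 2 members, taken within each array. A constant difference in level between the 2 probe sets cancels there, but a scaling that depends on signal level does not. The differences were not recomputed after quantile normalization, where the log2 change of Dppa5a was 0.02. The log2 change of Dppa3 exceeded that of Dppa5a by 1.30, that of Dppa4 did so by 0.94 and that of Dppa2 by 0.87. It was also 0.36 larger for Dppa3 than for Dppa4, and the value of Dppa2 minus Dppa3 was -0.43. In these 5 of 6 pairs the iPGC and ESC arrays did not overlap, though Dppa3 minus Dppa4 was at least 0.498 in iPGCs and reached 0.493 in ESCs. The 6 pairs come from 4 genes and are not independent, and the share of other gene pairs without overlap was not computed. For these 5 pairs the exact two-sided permutation test gave p = 0.133, the smallest that 4 against 2 arrays allow (adjusted p = 0.16 over 6 pairs). For Dppa2 and Dppa4, the heterodimer partners, the difference was -0.07 (exact p = 0.533) and the arrays overlapped. All pairs with Dppa2 used its probe set with the higher mean, and the other Dppa2 probe set was not tested in this way. In iPGCs against ESCs that other probe set had a log2 change of 0.28, and Dppa4 had 0.55. The values were -0.02 and 0.48 for V6.5 iPGCs, but 0.59 and 0.62 for Oct4-Gfp iPGCs. How close the partners were thus depended on the Dppa2 probe set and the line.

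The comparison of iPGCs with somatic cells of day 6 EBs asks which genes separate the germ cell fraction from EB cells negative for both sort markers. All 4 members were higher in iPGCs, where 33.7% of genes tested were higher and 29.8% lower, and their median log2 change was 5.51, against 0.07 over all genes. Dppa3 was 73.8-fold higher in iPGCs (6902 ± 70.4) than in somatic cells (82.6 ± 31.5, n = 4), a log2 change of 6.21 ± 0.22 (adjusted p = 4.54e-07), and was the 9th of 26368 probe sets by size of change. Dppa2 was 67.8-fold higher (5400 ± 672 against 74.2 ± 39.2), a log2 change of 6.08 ± 0.32 (adjusted p = 2.56e-06), in the 13th place. Since the other Dppa2 probe set was below background in all somatic cells, only a bound can be given, and it was at least 49.9-fold higher in iPGCs (adjusted p = 2.14e-07).

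Dppa4 was 30.7-fold higher (4596 ± 278 in iPGCs and 137 ± 22.5 in somatic cells), a log2 change of 4.94 ± 0.14 (adjusted p = 1.98e-07). Dppa5a showed the smallest of these changes, 21.6-fold (10745 ± 945 in iPGCs and 519 ± 195 in somatic cells), with a log2 change of 4.43 ± 0.25 (adjusted p = 3.71e-06). Folds were computed on the signal plus 14.8, which understates the change of a gene with low signal. None of these calls was lost in any of the settings tried, those that leave out an array included.

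The same direction was found within each line. All 4 members were higher in Oct4-Gfp iPGCs than in Oct4-Gfp somatic cells (background 25.7% higher and 24.8% lower), with log2 changes of 6.23 for Dppa3, 5.74 for Dppa2, 5.04 for Dppa4 and 4.01 for Dppa5a. All 4 were higher in V6.5 iPGCs than in V6.5 somatic cells (background 27.3% higher and 24.2% lower), with log2 changes of 6.18 for Dppa3, 6.43 for Dppa2, 4.84 for Dppa4 and 4.85 for Dppa5a. Dppa3 thus differed by nearly the same amount in both lines. The V6.5 values of Dppa2 and Dppa5a rested on which somatic array was used. Dppa2, not above background on V6.5 somatic replicate 1, had 5.58 without that array and 7.28 without replicate 2, and Dppa5a had 4.19 and 5.51, all past the threshold.

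Somatic cells were also set against the ESCs from which EBs are made. All 4 members were lower in somatic cells, where 34.7% of genes were lower and 32.6% higher, with a median log2 change of -5.06 against -0.02 over all genes. Dppa2 fell by 5.60 ± 0.40 on the log2 scale (adjusted p = 1.30e-05), and the other Dppa2 probe set was at least 40.8-fold lower in somatic cells. Dppa3 fell by 5.29 ± 0.27 (adjusted p = 2.79e-06), Dppa5a fell by 4.82 ± 0.31 (adjusted p = 8.38e-06) and Dppa4 fell by 4.39 ± 0.17 (adjusted p = 8.80e-07). All 4 were lower in Oct4-Gfp somatic cells than in V6.5 ESCs (background 31.7% lower and 30.5% higher) and in V6.5 somatic cells than in V6.5 ESCs (31.8% lower and 30.3% higher). These comparisons share the ESC arrays, and share the somatic arrays with those of iPGCs and somatic cells.

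**Figure D3:**
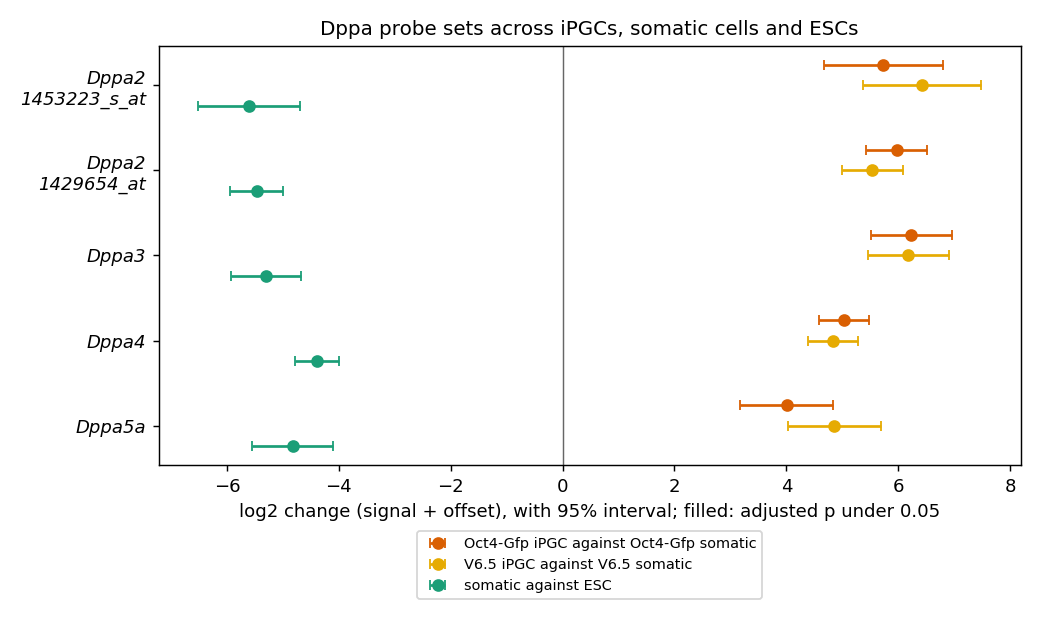
Log2 change of each Dppa probe set in iPGCs against somatic cells of the same line (right) and in somatic cells against ESCs (left); points are estimates, bars 95% intervals, and filled points have an adjusted p under 0.05. All points are filled, between 4.01 and 6.43 for iPGCs against somatic cells and between -5.60 and -4.39 for somatic cells against ESCs.

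The share of signal left in somatic cells is given for each member. As a percentage of the iPGC mean of the same line, it was 0.757 to 1.76% for Dppa3, 0.343 to 1.82% for Dppa2 (1453223_s_at), 2.33 to 3.55% for Dppa4 and 2.05 to 6.41% for Dppa5a. The ranges of Dppa3 and Dppa4 did not overlap, while those of Dppa4 and Dppa5a did. Low signal of an array does not scale with transcript number as high signal does, so that these percentages describe the signal only. Among markers of pluripotent cells, the core factors Pou5f1 (0.255 to 3.95%) and Nanog (1.58 to 5.80%) kept a like share in somatic cells, and Sox2 kept 2.02 to 9.12%. Tdgf1, a Nodal coreceptor, ran between 1.32 and 46.5%, with the highest value on Oct4-Gfp somatic replicate 2. Sall4 (80.3 to 89.6%) and Lin28a (107 to 137%) did not separate the populations in this way. V6.5 somatic replicate 1 had the lowest somatic signal for Dppa2 (1453223_s_at), Dppa3 and Dppa5a and for all 6 of these markers (9.19 for Pou5f1, 100.5 for Nanog), but not for Dppa4 or the other Dppa2 probe set.

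**Figure D4:**
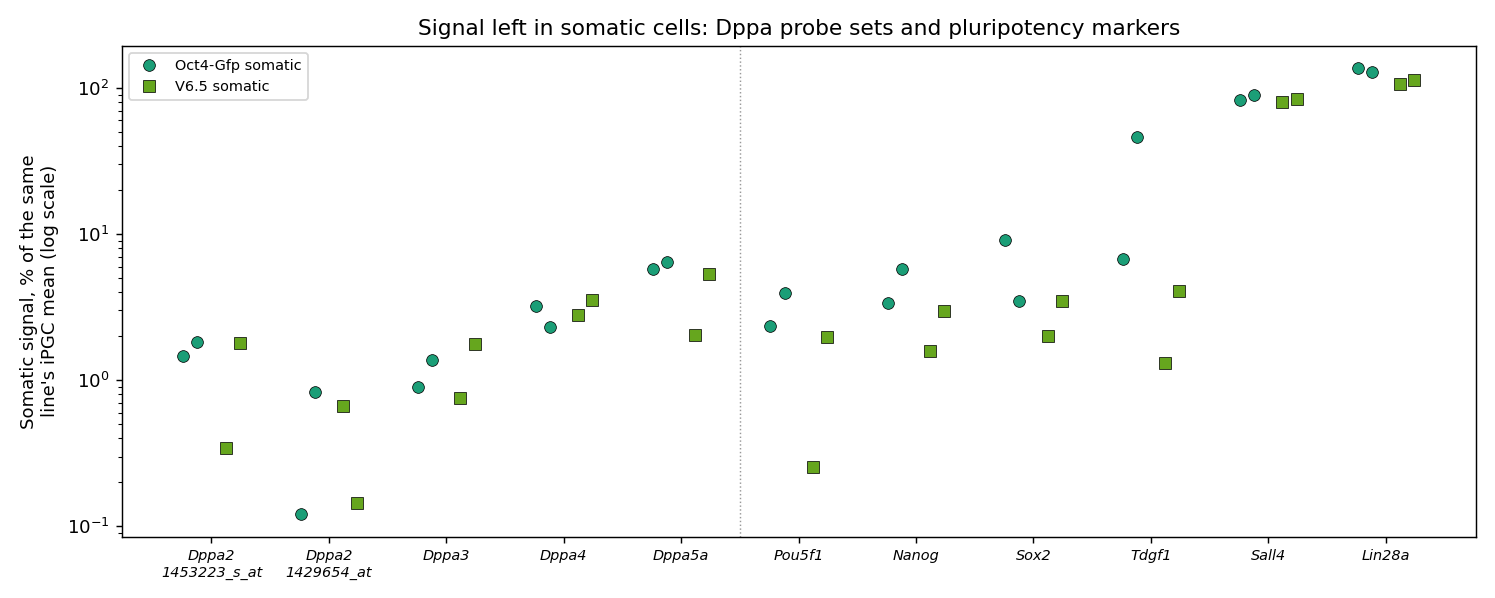
Signal of the 4 somatic arrays as a percentage of the iPGC mean of the same line (log scale), for the Dppa probe sets (left of the dotted line) and 6 markers of pluripotent cells (right); each point is 1 array. The Dppa probe sets lie at 6.41% or below, as do Pou5f1 and Nanog (up to 5.80%), Tdgf1 spreads from 1.32 to 46.5%, and Sall4 and Lin28a lie at 80.3% or above.

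Between the lines, no member differed past the threshold. In Oct4-Gfp iPGCs against V6.5 iPGCs, limma called 0 of 12207 genes in either direction (background 0% and 0%), although 2440 genes had an unadjusted p under 0.05. The other Dppa2 probe set (1429654_at) had the largest member change, 0.61 (unadjusted p = 0.0329, adjusted p = 0.203), with both Oct4-Gfp arrays above both V6.5 arrays. Dppa2 (1453223_s_at) changed by 0.24 (95% interval -0.81 to 1.30), Dppa4 by 0.13 (-0.31 to 0.58), Dppa5a by -0.11 (-0.95 to 0.72) and Dppa3 by less than 0.01 (-0.72 to 0.72), all without passing the threshold. Line and sort marker differ together here, and the Gapdh ratio was 2.02 to 2.37 in Oct4-Gfp and 1.51 to 1.63 in V6.5 iPGCs. With that ratio as a covariate, the change was -0.145 for Dppa2 1429654_at and -0.44 for Dppa3, neither past the threshold.

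In Oct4-Gfp somatic cells against V6.5 somatic cells, 0 of 4 members were called by limma, and few genes were called at all (0.0328% higher and 0.0492% lower). An unadjusted p under 0.05 was found for 0 of 4 members and 1445 of 12207 genes. Dppa2 had a log2 change of 0.93 (adjusted p = 0.448) and Dppa5a of 0.73 (adjusted p = 0.453), where V6.5 somatic replicate 1 was low for both. The difference between lines in the change of iPGCs against somatic cells was likewise called for 0 of 4 members (background 0% higher and 0.00819% lower). At an unadjusted p under 0.05 it was 0 of 4 members and 1119 of 12207 genes. The difference was -0.84 for Dppa5a (adjusted p = 0.571) and -0.69 for Dppa2 (adjusted p = 0.705).

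Genes with the most similar pattern were found for each member by Pearson r of log2 values over the 10 arrays, as a description. The arrays fall into somatic and other arrays, so that any gene with low somatic signal has a high r. Dppa2 was most like Dmrt1 (r = 0.997), Tpd52, Prdm14, Mreg and Mageb16, of which Prdm14 is a transcriptional regulator of PGC specification. Dppa3 was most like Mageb16 (r = 0.998), 2500002B13Rik, Ttc39b, Zfp819 and Slc9b1. Dppa4 was most like Klf2 (r = 0.998), a naive pluripotency factor, and Rnf125, Zfp936, Ulk1 and Terf1. Dppa5a was most like Pou5f1 (r = 0.997), and Lefty2, Mt1, Usp48 and Slc9b1 followed. Pou5f1, Lefty2 and Mt1 had means of 3148, 3390 and 6845 in iPGCs against 5920, 5364 and 10142 in ESCs. They were picked for likeness to Dppa5a over these same arrays, so that sharing its order adds no separate evidence. In the main model Pou5f1 did not pass in iPGCs against ESCs (limma, adjusted p = 0.131).

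Other transcripts of ESCs and germ cells were read beside the members. In a list of 8 transcripts associated with ESCs, all 8 were lower in somatic cells than in ESCs, and in iPGCs all 8 exceeded the somatic level past the threshold. In iPGCs against ESCs, 0 of them were higher and 4 were lower by limma, with a median log2 change of -0.53. The 4 were Eras (log2 change -1.93), a Ras-like protein of ESCs, Khdc3 (-1.64), a maternal-effect gene, Dnmt3l (-1.23), a cofactor of DNA methyltransferases, and Gdf3 (-0.95), a TGF-beta family ligand. With the Gapdh ratio as a covariate, 2 were lower.

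Most PGC markers were higher in iPGCs. Of 7 tested (8 listed), 6 passed against ESCs and 7 against somatic cells, all in that direction. With the Gapdh ratio as a covariate, 2 passed against ESCs, but not all estimates shrank. Prdm1 then had a log2 change of 2.14 (adjusted p = 0.118), Kit 1.37 (0.199) and Tfap2c 0.78 (0.145). Prdm14 fell from 0.53 to 0.17 (0.794). The changes against ESCs were largest for Itgb3 (log2 change 2.82), Dazl (1.99), an RNA-binding protein of germ cells, Prdm1 (1.51), the PGC specification factor Blimp1, and Kit (1.39), on which the cells were sorted. Dppa3, itself known as a PGC marker, had 0.91 in the same comparison. For a list of germline genes silenced by promoter methylation in somatic tissues, 12 of 12 tested (16 listed) were lower in somatic cells than in ESCs, and 12 of 12 were higher in iPGCs when set against somatic cells, as the Dppa members were. Against ESCs, 3 were higher in iPGCs and 2 lower, shares near the 24.5% and 21.0% over all genes. Among them were Dazl (1.99), Stk31 (1.22), Hormad1 (-0.70) and Syce1 (-0.66). Without ESC replicate 1, 1 was lower, and with the Gapdh ratio as a covariate 1 was higher and 0 lower.

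The DNA methylation machinery in which Dppa3 acts was read next. In iPGCs against ESCs, 2 of 9 genes tested (10 listed) were higher and 3 lower, shares near the 24.5% and 21.0% over all genes, with a median log2 change of -0.35. Uhrf2, a relative of Uhrf1, had a log2 change of 1.60 (adjusted p = 0.000517) and the maintenance methyltransferase Dnmt1 one of 0.43 (adjusted p = 0.0220). Dnmt3l (-1.23), the dioxygenase Tet1 (-0.87) and Uhrf1 (-0.39, adjusted p = 0.0234) were lower. Uhrf1, the factor that Dppa3 binds, had a mean signal of 5360 ± 731 in iPGCs, 5722 ± 371 in somatic cells and 6977 in ESCs, and did not pass in iPGCs against somatic cells (log2 change -0.10, adjusted p = 0.362), where Dppa3 differed 73.8-fold. In iPGCs against somatic cells, 3 of 9 were higher and 1 lower, where 33.7% of all genes tested were higher and 29.8% lower. The counts against ESCs were sensitive to the samples and the setting, with 1 higher and 1 lower when either ESC array was left out, and 0 higher and 1 lower with the Gapdh ratio as a covariate.

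Genes of the cleavage-stage embryo that were listed as downstream of Dppa2 and Dppa4 could be read in part. Of 9 listed, 4 had a probe set of their own on the array and 0 passed the filter on low values. Zfp352, a zinc finger gene of cleavage-stage embryos, read 12.7 or less in iPGCs, 8.02 or less in somatic cells and 12.4 or less in ESCs, and Tcstv1 15.4 or less on every array, both below background on all arrays. Tcstv3 was above background on 1 array and Duxf3 on 3. Of KH-domain relatives of Dppa5a and other maternal-effect genes, 5 of 7 tested (11 listed) had a higher level in iPGCs than in somatic cells past the threshold and 2 a lower one. Against ESCs, Khdc1a (log2 change 2.18) and Tle6 (1.04) were higher in iPGCs and Khdc3 (-1.64) was lower. Over all genes tested, 24.5% were higher and 21.0% lower there. No gene of this list was called against ESCs with the Gapdh ratio as a covariate. Without ESC replicate 1, 1 was higher and 2 lower, and without either Oct4-Gfp somatic array 2 were lower.

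Genes beside the members on the chromosome were read last, as the nearest 3 protein-coding genes tested on each side in GRCm38.p6. Morc1, a germline gene that starts 121 kb from the start of Dppa2, averaged 2892 ± 338 in iPGCs, 10.2 ± 6.85 in somatic cells and 2216 ± 142 in ESCs. Its means had the same order as those of Dppa2 and Dppa4, but Morc1 did not pass in iPGCs against ESCs (log2 change 0.38, adjusted p = 0.271). Further along, 614 kb from the start of Dppa2, Dzip3 was lower in iPGCs than in somatic cells (log2 change -0.70, adjusted p = 0.00109). Cip2a, at 684 kb, was higher in iPGCs (0.41, adjusted p = 0.00741). On the other side, at -1923 kb, Nectin3 did not pass (0.17, adjusted p = 0.201). Beyond it, Plcxd2 was higher in iPGCs than in somatic cells (0.74, adjusted p = 0.00569) and Phldb2 lower (-3.20, adjusted p = 1.47e-06). The low somatic signal was thus not shared by all of the genes read, some of which lie far away. Ooep, a maternal-effect KH-domain gene that starts 9.85 kb from Dppa5a, averaged 5121 ± 608 in iPGCs, 47.1 ± 28.6 in somatic cells and 7248 ± 333 in ESCs. Its means had the order of those of Dppa5a, but Ooep, like Dppa5a, did not pass in iPGCs against ESCs (log2 change -0.51, adjusted p = 0.331). Ddx43, next to it, averaged 602 ± 164 in iPGCs, 83.6 ± 22.6 in somatic cells and 743 ± 58.7 in ESCs. The other Dppa5a neighbours were mixed in iPGCs against somatic cells. Gsta4 was higher (log2 change 1.05, adjusted p = 0.000112) and Cilk1 lower (-0.67, adjusted p = 0.0108). Fbxo9 (0.14, adjusted p = 0.214) and Cgas (0.15, adjusted p = 0.403) did not pass.

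At the Dppa3 locus, Gdf3 and Nanog flank the gene, 21.0 and 81.1 kb away from start to start. Gdf3 averaged 1432 ± 363 in iPGCs, 16.5 ± 3.07 in somatic cells and 2716 ± 47.2 in ESCs. Nanog averaged 6526 ± 259 in iPGCs, 226 ± 121 in somatic cells and 6572 ± 216 in ESCs. Thus Gdf3 (log2 change -0.95, adjusted p = 0.00285), Nanog (-0.01, adjusted p = 0.979) and Dppa3 (0.91) had different values in iPGCs against ESCs at 1 locus, while all 3 had the lowest signal in somatic cells. Slc2a3, a glucose transporter gene beyond Nanog, averaged 9083 ± 409 in iPGCs, 8063 ± 441 in somatic cells and 11929 ± 781 in ESCs, and did not pass in iPGCs against somatic cells (adjusted p = 0.148).

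**Figure D5:**
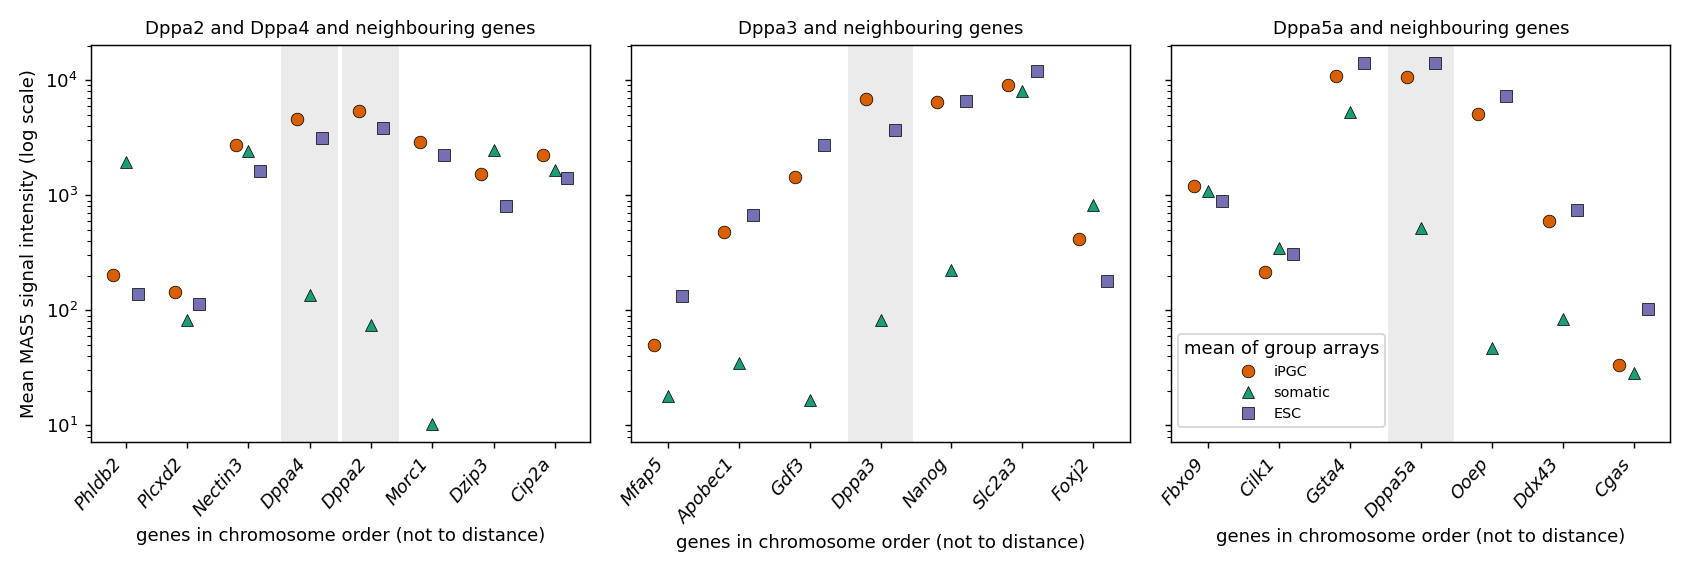
Mean MAS5 signal intensity (log scale) of the Dppa genes (grey columns) and the nearest protein-coding genes tested on either side, in chromosome order; points are means over the iPGC (n = 4), somatic (n = 4) and ESC (n = 2) arrays. Morc1, Ooep, Ddx43, Gdf3, Apobec1 and Nanog share the low somatic signal of the Dppa genes. Slc2a3, Nectin3, Fbxo9 and Cgas did not pass in iPGCs against somatic cells, and Phldb2, Dzip3, Foxj2 and Cilk1 were higher in somatic cells.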

How the data were processed

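Signal intensity was deposited by the authors on a linear scale for 10 arrays. The submitters' processing notes name MAS5 without a version, the paper's methods describe D-Chip, and the values had a mean of 500 per array after trimming 2% at each end. RNA of sorted cells had been amplified before labelling, which can compress or distort ratios of low signals. Here 64 control probe sets were left out, and log2 of the signal plus 14.8 (the 25th percentile) was used for 26368 probe sets above the array's median on at least 2 arrays. Of a gene's probe sets, the one with the highest mean stood for the gene, and Dppa2's second was also given. limma 3.58.1 (R 4.3.3) fitted 1 mean per population, with 5 residual degrees of freedom and 2.92 from its prior, and Benjamini-Hochberg adjustment ran over all probe sets tested. Only 2 arrays per group limit the precision.

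Members and gene lists were chosen with earlier results of these data known. Other genes were named by rule: the 5 most like each member over 10 arrays, up to 4 per list with the largest called change in iPGCs against ESCs, and 3 neighbours on each side. Genes used as examples beyond that (Uhrf1, Zfp352, Tcstv1, Tcstv3, Duxf3) were chosen after their values were seen. The platform annotation gave 1 symbol to 34958 probe sets, several to 932 and none to 9211. Alternatives were another offset, a floor, other filters and normalizations, other sets of arrays, limma-trend, array weights, no moderation, a replicate block, the Gapdh ratio as a covariate, and leaving out each array.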

Additional observations from a re-analysis of the deposited data

Results flagged for a closer look

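Among the 4 somatic arrays, the lowest value stood apart for 2 of the 5 Dppa probe sets, and both times it was V6.5 somatic replicate 1. For Dppa2 (1453223_s_at) it read 17.0, with the other somatic arrays at 84.7 to 106, and the gap to the next array took up 0.854 of the whole log2 range. For Dppa5a it read 230, with the others at 591 to 660, and the gap took up 0.892 of the range. Both exceeded Dixon's 95% critical value for 4 arrays, and chance flags about 1 in 20 groups. Without this array, Dppa2 and Dppa5a were still called higher in iPGCs than in somatic cells.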

How the results depend on the processing

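No member's direction or call changed in iPGCs against somatic cells, or in somatic cells against ESCs, in any setting run. In iPGCs against ESCs, calls depended on the setting. The number of members higher, 2 with both lines together, was 1 with a floor, 0 with no filter, on V6.5 arrays alone, with no moderation or with the Gapdh ratio as a covariate, and 0 to 3 when 1 array was left out. For Dppa3 the log2 change was 0.92 with a floor, 0.91 with no filter, on V6.5 arrays alone or with no moderation, 0.51 with the Gapdh ratio, and 0.80 to 1.02 without 1 array, passing only where a somatic array was the one left out. For Dppa4 it was 0.55 with no filter or no moderation, 0.48 on V6.5 arrays, 0.82 with the Gapdh ratio and 0.39 to 0.71 without 1 array. Dppa2 passed at 0.48 with only the arrays compared, and ranged over 0.40 to 0.56 without 1 array. In V6.5 iPGCs against ESCs, the count of members higher, 0, was 1 with a doubled offset, with only the arrays compared or with a replicate block, 2 with limma-trend, and 0 to 1 without 1 array. In Oct4-Gfp iPGCs against ESCs, the count, 2, was 1 with a floor, with array weights or with a replicate block, 0 with no filter, no moderation or the Gapdh ratio, and 0 to 3 without 1 array. The other Dppa2 probe set had -0.49 there with the Gapdh ratio, without passing. The replicate numbers did not pair the arrays, since only 2 of 10 pairs of groups had deviations correlated above 0.1 (range -0.29 to 0.26), and the block changed no other member count. The cause was not tested. For Thy1, a fibroblast marker, the change in iPGCs against somatic cells was 0.38 on V6.5 arrays, against its own sign over both lines. Only 2 ESC arrays limit every comparison with ESCs.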
